A study of Mus musculus with 24 samples.

Results

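Heat shock proteins fold new proteins, hold damaged ones in solution and hand others to proteases, and cells keep separate sets of them in the cytosol and inside mitochondria. This account follows 10 mouse genes of both sets, 10 of the 55416 gene IDs in the deposited table, found in it by their names. The 4 cytosolic genes were Hspa1a, Hspb1, Hsp90aa1 and Dnajb1. The 6 mitochondrial genes were Hspd1, Hspe1, Hspa9, Lonp1, Clpp and Trap1. Each gene was found once in the table, and 10 of 10 passed the filter on low values, which asked for at least 10 normalized counts in at least 6 of 24 libraries.

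As background, cytosolic heat shock genes are switched on by the factor HSF1, which binds short inverted repeats of the letters GAA, called heat shock elements, in their promoters when unfolded protein builds up. Damage to protein in the mitochondrial matrix is known to raise a partly separate set, the mitochondrial unfolded protein response, which includes the matrix chaperones and the proteases LONP1 and CLPP and has been tied to the factor ATF5. In the kidney, ischemia followed by reperfusion injures proximal tubule cells above all, which are rich in mitochondria, and heat shock proteins of the cytosol are known to rise in injured tubules.

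The study asked how mutations of mitochondrial DNA add to kidney injury after ischemia reperfusion. Its 24 kidney RNA libraries formed 4 groups of 6, namely PolgD257A mice after the ischemia reperfusion surgery labelled B-IRI, Polg+/+ littermates after B-IRI, PolgD257A mice after sham surgery and Polg+/+ littermates after sham surgery. PolgD257A is an allele of the gene for the mitochondrial DNA polymerase that removes its proofreading, so that point mutations of mitochondrial DNA build up throughout the animal. The sources used here give neither age, sex, the time between surgery and collection nor whether 1 or both Polg copies were mutant, and the labels call the libraries of a group biological replicates.

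Per library, 16689284 to 26341004 reads were assigned to genes, and the libraries of sham PolgD257A kidneys (20843184 to 25858504) were deeper than those of sham Polg+/+ kidneys (16689284 to 19737994). Levels are given as normalized counts, which the authors made by dividing the reads of a gene by 1 size factor per library, and for a group of 6 as the lowest, the median and the highest library. Changes are differences on the log2(normalized count + 1) scale with the standard error (SE) of limma, and a gene was called higher or lower at an adjusted p under 0.05 in limma's moderated two-sided test with Benjamini-Hochberg adjustment over 17430 genes. The SE pools the spread of a gene over all 24 libraries and is therefore the same in every comparison of 2 groups. Both comparisons of PolgD257A with Polg+/+ use libraries that also serve in a comparison of B-IRI with sham, so results of different comparisons are given side by side and not as separate evidence.

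Kidney was checked by its markers. The 6 of 6 proximal tubule markers, such as the phosphate carrier Slc34a1 and the uptake receptor Lrp2, were present in every group. Their summed level was 96391 to 126761 normalized counts in B-IRI PolgD257A kidneys, 152753 to 203576 in B-IRI Polg+/+ kidneys, 238858 to 300885 in sham PolgD257A kidneys and 213296 to 279695 in sham Polg+/+ kidneys. In bulk tissue, fewer cells of a type and less RNA per cell cannot be told apart. The summed level of 3 fibroblast markers was 3931 to 6151 in B-IRI PolgD257A, 2145 to 4359 in B-IRI Polg+/+, 1399.9 to 1964 in sham PolgD257A and 1592 to 2123 in sham Polg+/+ kidneys, but the 3 did not move together. Of the 3, Col1a1 and Pdgfrb were called higher after B-IRI in both genotypes and higher in PolgD257A than in Polg+/+ kidneys after B-IRI. Dcn was called lower after B-IRI, by -0.53 ± 0.13 in PolgD257A and -0.57 ± 0.13 in Polg+/+ kidneys, and was not called between genotypes. The 4 neutrophil markers summed to 75.0 to 450.0 in B-IRI PolgD257A, 37.1 to 113 in B-IRI Polg+/+, 13.7 to 47.6 in sham PolgD257A and 20.0 to 35.5 in sham Polg+/+ kidneys. The defining marker Ly6g was at or near 0 in each group. The part of these marker differences in the results on chaperones was not tested.

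After B-IRI the cytosolic genes that were called were higher in both genotypes, led by Hspb1, while the mitochondrial genes went in different directions. In PolgD257A kidneys 9 of the 10 genes were called, 6 higher and 3 lower, where 60.4% of all genes tested were called. In Polg+/+ kidneys 6 of the 10 were called, 5 higher and 1 lower, where 41.2% of all genes were called. Of the 4 cytosolic genes, 4 were higher and 0 lower in PolgD257A kidneys, with a median change of 0.49, and 3 were higher and 0 lower in Polg+/+ kidneys, with a median change of 0.41. Of the 6 mitochondrial genes, 2 were higher and 3 lower in PolgD257A kidneys, with a median change of -0.06, and 2 were higher and 1 lower in Polg+/+ kidneys, with a median change of 0.14. Under quantile normalization 3 mitochondrial genes were higher and 1 lower in PolgD257A kidneys, with a median change of 0.15. Of all genes, 30.2% were called higher in PolgD257A and 21.4% in Polg+/+ kidneys, 30.3% were called lower in PolgD257A and 19.8% in Polg+/+ kidneys, and the median change was 0.00 in PolgD257A and -0.01 in Polg+/+ kidneys. The B-IRI and sham libraries did not overlap for 2 of the 10 genes in PolgD257A kidneys, where 36.2% of all genes did not overlap, and for 3 of the 10 in Polg+/+ kidneys, where 20.2% did not. Mere counts of members called or apart are therefore not read as a result.

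**Figure D1:**
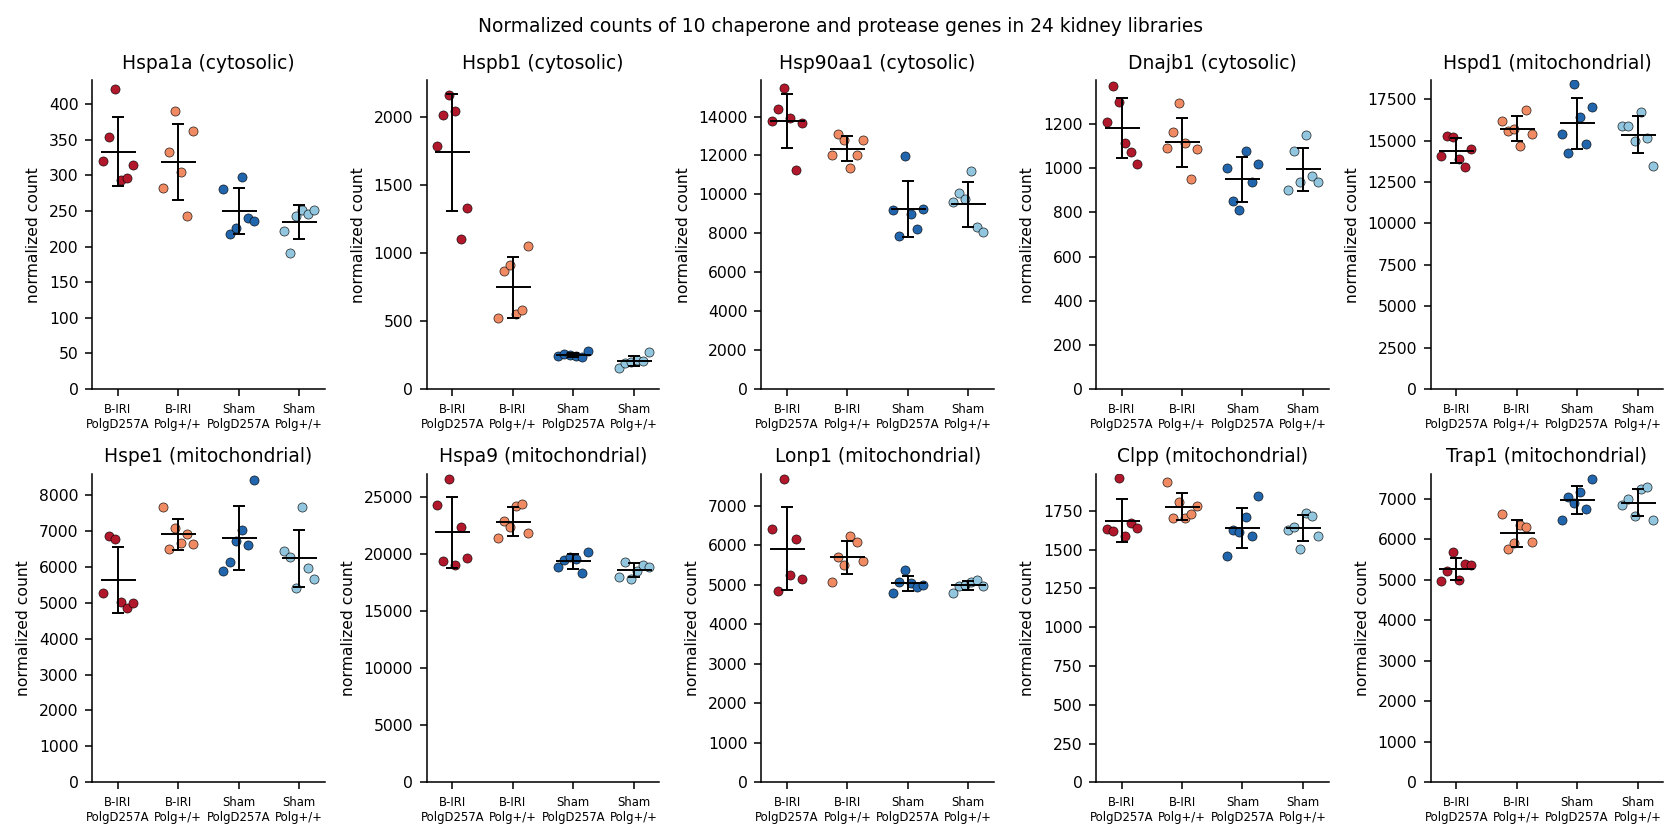
Normalized counts of the 10 genes in each of 24 kidney libraries, 1 panel per gene, with 4 groups of 6 libraries on each horizontal axis and the normalized count, from 0, on each vertical axis. Points are libraries, the long bar is the group mean and the whiskers are 1 SD. Hspb1 stands at 1098 to 2156 in B-IRI PolgD257A kidneys and at 521 to 1051 in B-IRI Polg+/+ kidneys, above every sham library (151 to 281), while Clpp and Hspd1 differ little between groups.

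Hspb1 encodes a small heat shock protein that binds unfolding proteins without using ATP and protects actin filaments (ENSMUSG00000004951, chromosome 5, 135887919 to 135889563, plus strand, GRCm38). It had the largest change of the 10 genes in both comparisons of B-IRI with sham and in the comparison of genotypes after B-IRI. Its level was 1098, 1899.8 and 2156 normalized counts (lowest, median and highest) in B-IRI PolgD257A kidneys, 521, 723 and 1051 in B-IRI Polg+/+ kidneys, 236, 246 and 281 in sham PolgD257A kidneys and 151, 202 and 269 in sham Polg+/+ kidneys. Neither pair of B-IRI and sham groups overlapped, and every B-IRI PolgD257A library lay above every B-IRI Polg+/+ library, if only by 1098 against 1051 at the closest.

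Hspb1 rose by 2.75 ± 0.17 (SE; 6.72-fold, adjusted p = 3.6e-13) after B-IRI in PolgD257A kidneys and by 1.82 ± 0.17 (3.54-fold, adjusted p = 4.4e-09) in Polg+/+ kidneys, by limma. The difference between these responses, the surgery by genotype interaction, was 0.93 ± 0.24 (adjusted p = 0.0093). After B-IRI, Hspb1 was 2.35-fold higher in PolgD257A than in Polg+/+ kidneys (log2 difference 1.23 ± 0.17, adjusted p = 6.8e-06). In sham kidneys the log2 difference between genotypes was 0.30 ± 0.17 (95% interval -0.03 to 0.64, adjusted p = 0.75), and the groups overlapped. The authors' deposited table, read from its name as PolgD257A against Polg+/+ after B-IRI, gives Hspb1 a shrunken log2 change of 1.17 with an SE of 0.171 and an s-value of 3.72e-13, and Hspb1 was the only 1 of the 10 genes among the 1401 that table lists.

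Within the B-IRI groups, libraries low in Hspb1 were also low in Havcr1, the tubule injury marker known as KIM-1. In PolgD257A kidneys, replicates 5 and 6 were the lowest in both, with 1098 and 1330.4 normalized counts for Hspb1 and 25923 and 26493 for Havcr1, against 33059 to 36062 for Havcr1 in the other 4 libraries. Among those 4 the order was reversed, since Hspb1 was 2156 in replicate 3, 2042 in replicate 4, 2014 in replicate 2 and 1785 in replicate 1, while Havcr1 was lowest in replicate 3 (33059) and highest in replicate 1 (36062). In Polg+/+ kidneys, replicates 1, 4 and 5 had the 3 lowest Hspb1 levels (521 to 579) and also the 3 lowest Havcr1 levels (5441, 7005 and 12211), and replicate 6 was the highest in both (1051 for Hspb1 and 24888 for Havcr1). Havcr1 was 112 to 198 in sham libraries of both genotypes. Havcr1 and Hspb1 were thus both higher in B-IRI PolgD257A than in B-IRI Polg+/+ libraries, and within genotypes their orders agreed only in part. The part of the extent of injury in the difference between genotypes was not tested.

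Hspa1a encodes the heat-inducible HSP70, which binds unfolded stretches of proteins in cycles driven by ATP (ENSMUSG00000091971, chromosome 17, 34969190 to 34972156, minus strand). Its level was 294, 317 and 422 in B-IRI PolgD257A kidneys, 243, 319 and 389.7 in B-IRI Polg+/+ kidneys, 218, 238 and 297 in sham PolgD257A kidneys and 191, 244 and 251 in sham Polg+/+ kidneys. The ranges of B-IRI and sham overlapped only narrowly in each genotype. Hspa1a rose by 0.41 ± 0.11 (1.33-fold, adjusted p = 0.0018) after B-IRI in PolgD257A kidneys and by 0.44 ± 0.11 (1.35-fold, adjusted p = 0.0020) in Polg+/+ kidneys, by limma. The interaction was -0.02 ± 0.15 (95% interval -0.32 to 0.27, adjusted p = 0.94).

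Hspa1a has a near copy beside it on chromosome 17, Hspa1b, which encodes nearly the same protein. Of the 2918 stretches of 50 bases in the exons of Hspa1a, 1716 (58.8%) also occur in Hspa1b, so reads of the pair may have been lost or split in counting and the level of either gene is uncertain. Hspa1b had a change in the same direction, with 0.75 ± 0.13 (adjusted p = 2.3e-05) in PolgD257A and 0.62 ± 0.13 (adjusted p = 0.00048) in Polg+/+ kidneys by limma. Hspa1a also overlaps the predicted gene Gm20481 on the opposite strand over 564 bases, and the sources used here do not say whether counting used the strand.

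Hsp90aa1 encodes the inducible form of cytosolic HSP90, which matures kinases and hormone receptors (ENSMUSG00000021270, chromosome 12, 110690605 to 110702728, minus strand). Its level was 11264, 13862 and 15481 in B-IRI PolgD257A kidneys, 11374, 12393 and 13099.9 in B-IRI Polg+/+ kidneys, 7859.5, 9104 and 11978 in sham PolgD257A kidneys and 8084, 9681 and 11192 in sham Polg+/+ kidneys. The PolgD257A groups overlapped through 1 sham library, replicate 3, at 11978, and the Polg+/+ groups did not overlap. Hsp90aa1 rose by 0.58 ± 0.09 (1.49-fold, adjusted p = 2.8e-06) after B-IRI in PolgD257A and by 0.38 ± 0.09 (1.31-fold, adjusted p = 0.00099) in Polg+/+ kidneys, by limma. The interaction was 0.19 ± 0.12 (95% interval -0.05 to 0.44, adjusted p = 0.32). Under quantile normalization the PolgD257A change was 0.89, and the difference of 0.15 between genotypes after B-IRI (adjusted p = 0.21) became 0.29 (adjusted p = 0.016). Its constitutive sister Hsp90ab1 rose less in size, by 0.36 ± 0.06 (adjusted p = 5.8e-06) in PolgD257A and 0.26 ± 0.06 (adjusted p = 0.00062) in Polg+/+ kidneys, and the difference between the sisters was not tested.

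Dnajb1 encodes HSP40, the co-chaperone that delivers clients to HSP70 and starts its ATP cycle (ENSMUSG00000005483, chromosome 8, 83608193 to 83612653, plus strand). Its level was 1021, 1162 and 1371 in B-IRI PolgD257A kidneys, 952, 1102 and 1295 in B-IRI Polg+/+ kidneys, 810.3, 970.2 and 1077 in sham PolgD257A kidneys and 903, 953 and 1149.8 in sham Polg+/+ kidneys. The groups overlapped in each genotype. Dnajb1 rose by 0.31 ± 0.08 (1.24-fold, adjusted p = 0.0018) in PolgD257A kidneys, and its change in Polg+/+ kidneys was 0.17 ± 0.08 (adjusted p = 0.11), by limma. The Polg+/+ change passed the threshold on leaving out B-IRI Polg+/+ replicate 5 (0.21, adjusted p = 0.045) or sham Polg+/+ replicate 4 (0.21, adjusted p = 0.048), and the interaction was 0.15 ± 0.12 (adjusted p = 0.43).

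**Figure D2:**
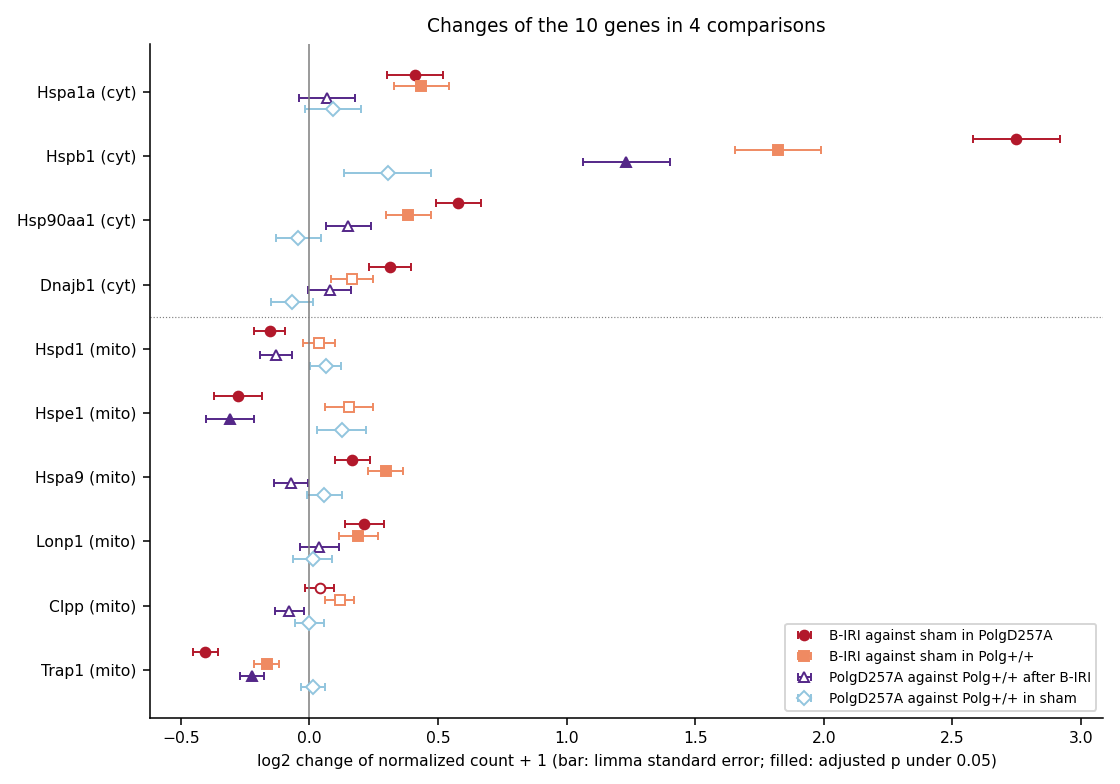
Log2 changes of the 10 genes (rows, cytosolic above the dotted line and mitochondrial below it) in 4 comparisons of 6 against 6 libraries, with the log2 change of the normalized count + 1 on the horizontal axis, bars for the limma SE and filled symbols for an adjusted p under 0.05. Hspb1 reaches 2.75 in PolgD257A and 1.82 in Polg+/+ kidneys, Trap1 lies at -0.40 in PolgD257A and -0.17 in Polg+/+ kidneys, and no symbol is filled for PolgD257A against Polg+/+ in sham kidneys.

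Promoters were read from the RefSeq promoter table (GRCm38.p6, 250 bases before to 50 after each start site), which held windows for 8 of the 10 genes. Windows were searched on both strands for 3 units of the heat shock element in a row (GAANNTTCNNGAA and TTCNNGAANNTTC), found in 0.603% of 32851 windows (198), and for 2 units (GAANNTTC and TTCNNGAA), found in 15.1%. The windows of Hspb1, Hspa1a and Clpp held matches to 2 units and none to 3. The Clpp match lay 33 to 40 bases after the start site, and Clpp was called in no contrast. The matches before a start site are shown, with the match in capitals, each read 5′ to 3′ on the strand of the gene.
Hspb1, chr5:135887791-135887820, plus strand, 117 to 110 bases before the start site: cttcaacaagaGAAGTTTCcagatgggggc
Hspb1, chr5:135887811-135887840, plus strand, 97 to 90 bases before the start site: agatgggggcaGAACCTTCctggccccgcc
Hspa1a, chr17:34972242-34972271, minus strand, 104 to 97 bases before the start site: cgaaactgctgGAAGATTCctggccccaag
The Hspa1b window holds the same 30 bases at chr17:34959324-34959353, and 296 of the 300 bases of the windows of Hspa1a and Hspa1b are identical. No match to either form was found in the windows of Dnajb1, which also rose, or of Lonp1 and Trap1. A match is a description of these letters and not a measured binding site.

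Hspd1 and Hspe1 encode HSP60 and HSP10, the barrel and the lid of the chaperonin that folds proteins imported into the mitochondrial matrix. They lie head to head on chromosome 1, Hspd1 on the minus strand at 55077835 to 55088243 (ENSMUSG00000025980) and Hspe1 on the plus strand at 55088132 to 55091307 (ENSMUSG00000073676), and their exons overlap by 112 bases on opposite strands. A heat shock element made of 2 overlapping matches to 3 units lies before the RefSeq start of Hspe1 (55088148). It also lies before 1 of 2 RefSeq starts of Hspd1 (55087932). The other start of Hspd1 (55088243) has no match in its window, and the element then lies inside Hspd1. The element is shown as each gene reads it, with the 18 bases that the 2 overlapping matches cover in capitals.
Hspd1, chr1:55088053-55088082, minus strand, 144 to 127 bases before the nearer of 2 annotated start sites: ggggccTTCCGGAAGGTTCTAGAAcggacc
Hspe1, chr1:55088053-55088082, plus strand, 89 to 72 bases before the start site: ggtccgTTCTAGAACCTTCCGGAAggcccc
No other window among the 8 genes matched 3 units. Neither gene of the pair was called higher after B-IRI in either genotype, except Hspd1 under quantile normalization.

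Hspe1 was at 4858, 5149 and 6859.8 normalized counts in B-IRI PolgD257A kidneys, 6488, 6773 and 7663 in B-IRI Polg+/+ kidneys, 5887, 6657 and 8398 in sham PolgD257A kidneys and 5396, 6115 and 7650.3 in sham Polg+/+ kidneys. Replicates 1, 4, 5 and 6 of the B-IRI PolgD257A group (4858 to 5273) lay below every library of the other 3 groups, while replicates 2 and 3 (6859.8 and 6759) lay within the range of the other groups. Hspe1 fell by 0.28 ± 0.09 on the log2 scale after B-IRI in PolgD257A kidneys (adjusted p = 0.013), and its change in Polg+/+ kidneys was 0.16 ± 0.09 (adjusted p = 0.19), by limma. The interaction was -0.43 ± 0.13 (adjusted p = 0.027), and Hspe1 was lower in PolgD257A than in Polg+/+ kidneys after B-IRI, by -0.31 ± 0.09 (adjusted p = 0.014). The interaction missed the threshold without B-IRI Polg+/+ replicate 1 (-0.40, adjusted p = 0.051) or sham Polg+/+ replicate 3 (-0.39, adjusted p = 0.050). It also missed it by limma with no filter on low values (adjusted p = 0.052) or a block by replicate number (adjusted p = 0.052). Under quantile normalization the interaction was -0.31 (adjusted p = 0.068) and the fall in PolgD257A kidneys was -0.12 (adjusted p = 0.20).

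Hspd1 was at 13387, 14259 and 15262 in B-IRI PolgD257A kidneys, 14652, 15654 and 16859 in B-IRI Polg+/+ kidneys, 14248, 15927 and 18398 in sham PolgD257A kidneys and 13444, 15532 and 16726 in sham Polg+/+ kidneys. All 4 groups overlapped. Its change after B-IRI was -0.15 ± 0.06 (adjusted p = 0.031) in PolgD257A kidneys and 0.04 ± 0.06 (adjusted p = 0.65) in Polg+/+ kidneys by limma, with an interaction of -0.19 ± 0.09 (adjusted p = 0.14). The PolgD257A call is weak. It was lost on leaving out any of B-IRI PolgD257A replicates 1, 4 and 5 or sham PolgD257A replicates 3, 4 and 6 (-0.11 to -0.15, adjusted p 0.054 to 0.10), and quantile normalization turned it to 0.23 (adjusted p = 0.000198).

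Trap1 encodes the HSP90 of mitochondria (ENSMUSG00000005981, chromosome 16, 4039971 to 4077827, minus strand). Its level was 4969, 5286 and 5688 in B-IRI PolgD257A kidneys, 5752, 6119.9 and 6632 in B-IRI Polg+/+ kidneys, 6483, 6975 and 7493 in sham PolgD257A kidneys and 6479.9, 6921 and 7285 in sham Polg+/+ kidneys. Every B-IRI PolgD257A library lay below every library of the other 3 groups, and the Polg+/+ groups overlapped narrowly. Trap1 thus moved against its cytosolic relative Hsp90aa1 in both genotypes.

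Trap1 fell by 0.40 ± 0.05 on the log2 scale after B-IRI in PolgD257A kidneys (adjusted p = 3.9e-08) and by 0.17 ± 0.05 in Polg+/+ kidneys (adjusted p = 0.0059), by limma. The interaction was -0.24 ± 0.07 (adjusted p = 0.016), and the level after B-IRI was lower in PolgD257A than in Polg+/+ kidneys by -0.22 ± 0.05 (adjusted p = 0.00076). Under quantile normalization the PolgD257A change was -0.27 and the interaction -0.14 (adjusted p = 0.081). Trap1 overlaps Dnase1 on the opposite strand over 54 bases. Of the 6 proximal tubule markers, 6 were called lower after B-IRI in PolgD257A kidneys and 4 in Polg+/+ kidneys, where Slc22a6 (0.01 ± 0.15, adjusted p = 0.96) and Aqp1 (-0.10 ± 0.12, adjusted p = 0.56) were not called. After B-IRI, 5 of the 6 were lower in PolgD257A than in Polg+/+ kidneys, all but Slc5a2 (-0.15 ± 0.11, adjusted p = 0.35). Of 3 markers of the thick ascending limb, another tubule segment, 2 were called lower and 0 higher after B-IRI in PolgD257A kidneys. In Polg+/+ kidneys 0 were lower and 1 was higher. After B-IRI, 3 of these 3 were lower in PolgD257A than in Polg+/+ kidneys. The part of either segment in the fall of Trap1 was not tested.

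Hspa9 encodes mortalin, the matrix HSP70 that pulls proteins through the import channel (ENSMUSG00000024359, chromosome 18, 34937414 to 34954357, minus strand). Its level was 19047, 21049 and 26638 in B-IRI PolgD257A kidneys, 21409.9, 22646 and 24456 in B-IRI Polg+/+ kidneys, 18368, 19533 and 20212 in sham PolgD257A kidneys and 17824, 18735 and 19349 in sham Polg+/+ kidneys. In PolgD257A kidneys the groups overlapped and the rise was 0.17 ± 0.07 (adjusted p = 0.034). In Polg+/+ kidneys the groups did not overlap and the rise was 0.30 ± 0.07 (1.23-fold, adjusted p = 0.00092), by limma. The PolgD257A call was lost without any of B-IRI PolgD257A replicates 1, 3 and 5 or sham PolgD257A replicates 1 and 5 (0.11 to 0.16, adjusted p 0.058 to 0.12), and it did not pass with only the 12 libraries compared (adjusted p = 0.095). Quantile normalization gave larger changes, 0.60 in PolgD257A and 0.54 in Polg+/+ kidneys.

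Lonp1 encodes the matrix protease that removes oxidized and misfolded proteins and also binds mitochondrial DNA (ENSMUSG00000041168, chromosome 17, 56614297 to 56626887, minus strand). Its level was 4843, 5705 and 7671 in B-IRI PolgD257A kidneys, 5061, 5659 and 6229 in B-IRI Polg+/+ kidneys, 4797, 5016 and 5366 in sham PolgD257A kidneys and 4786, 4991 and 5125 in sham Polg+/+ kidneys. B-IRI and sham overlapped in each genotype. Lonp1 rose by 0.21 ± 0.08 (adjusted p = 0.017) in PolgD257A and by 0.19 ± 0.08 (adjusted p = 0.047) in Polg+/+ kidneys, by limma. The PolgD257A change was 0.14 (adjusted p = 0.062) without B-IRI PolgD257A replicate 3, and its call was also lost with only the 12 libraries compared (adjusted p = 0.054). The Polg+/+ change missed the threshold with no filter on low values (adjusted p = 0.088) and with a block by replicate number (adjusted p = 0.053). The Polg+/+ call was lost on leaving out any 1 of 17 of the 24 libraries, at an adjusted p of 0.050 to 0.11.

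Clpp encodes the proteolytic chamber that works with the unfolding ring CLPX (ENSMUSG00000002660, chromosome 17, 56990305 to 56996188, plus strand). Its level was 1586, 1636 and 1964 in B-IRI PolgD257A kidneys, 1703, 1754 and 1933 in B-IRI Polg+/+ kidneys, 1459, 1618 and 1844 in sham PolgD257A kidneys and 1504, 1639 and 1734 in sham Polg+/+ kidneys. The 4 groups overlapped, and Clpp was the only 1 of the 10 genes called in none of the 5 contrasts. Its change after B-IRI was 0.04 ± 0.06 (95% interval -0.07 to 0.15, adjusted p = 0.56) in PolgD257A and 0.12 ± 0.06 (95% interval 0.01 to 0.22, adjusted p = 0.093) in Polg+/+ kidneys, by limma. Clpx fell, by 0.31 ± 0.07 (adjusted p = 0.00044) in PolgD257A and by 0.25 ± 0.07 (adjusted p = 0.0070) in Polg+/+ kidneys on the log2 scale. The difference log2 Clpx minus log2 Clpp was accordingly 0.52 ± 0.19 in B-IRI PolgD257A, 0.48 ± 0.08 in B-IRI Polg+/+, 0.87 ± 0.10 in sham PolgD257A and 0.84 ± 0.12 in sham Polg+/+ kidneys (SD, n = 6 each).

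The B-IRI PolgD257A kidneys differed among themselves. Replicates 1, 3 and 5 had the 3 highest levels of Lonp1 (6405, 7671 and 6150.0 normalized counts, against 4843 to 5261 in replicates 2, 4 and 6) and of Hspa9 (24365, 26638 and 22406, against 19047 to 19692). The same 3 libraries were the highest in Atf5, with 2985, 3795 and 2491 against 1576 to 2046. Relative to the mean of the sham PolgD257A libraries, Lonp1 was 0.35, 0.61 and 0.29 higher on the log2 scale in these 3 libraries and -0.06 to 0.06 in the other 3. Hspe1 divided the same 6 kidneys another way, since it was near the sham mean in replicates 2 and 3 (0.02 and 0.00) and at -0.36 to -0.47 in the others.

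**Figure D3:**
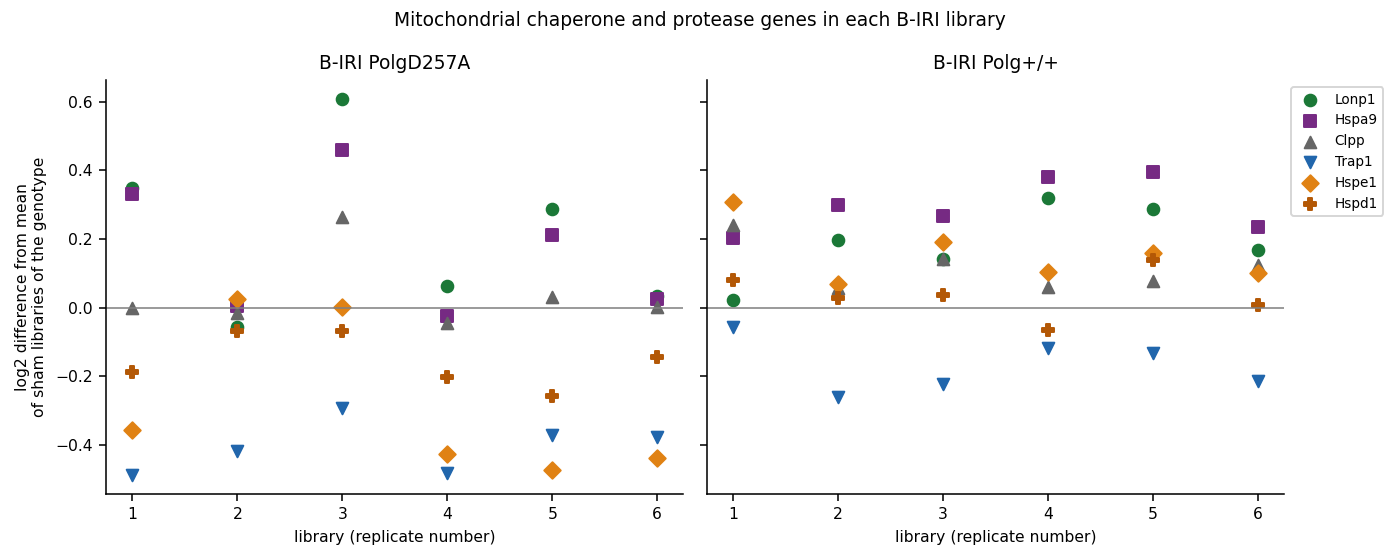
Mitochondrial chaperone and protease genes in each B-IRI library, as the log2 difference from the mean of the 6 sham libraries of the same genotype (vertical axis), by replicate number (horizontal axis), for PolgD257A on the left and Polg+/+ on the right. Lonp1 and Hspa9 lie highest in PolgD257A replicates 1, 3 and 5 (0.35, 0.61 and 0.29 for Lonp1), while Trap1 is below 0 in all 12 libraries.

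In Polg+/+ kidneys after B-IRI, replicates 4 and 5 were the highest in Lonp1 (6229 and 6086) and Hspa9 (24220 and 24456). Replicate 1, the library with the lowest Havcr1, was the lowest in Lonp1 (5061), in Hspa9 (21409.9) and in Atf5 (896, against 1867 to 2412 in the other 5), and it was the highest in Hspe1 (7663), Clpp (1933) and Trap1 (6632). Replicate numbers are names with no order, and what set these libraries apart was not tested.

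In the comparison of PolgD257A with Polg+/+ after B-IRI, 3 of the 10 genes were called, Hspb1 higher and Hspe1 and Trap1 lower, where 29.5% of all genes tested were called (14.3% higher and 15.2% lower). The groups of Hspb1 and Trap1 did not overlap, where 10.6% of all genes had groups that did not. The same 3 genes were called in the interaction, 1 positive and 2 negative, where 15.9% of all genes were called (6.87% positive and 9.08% negative). The 95% intervals of the other 7 genes after B-IRI ran from -0.25 for the lower bound of Hspd1 to 0.32 for the upper bound of Hsp90aa1. In sham kidneys 0 of the 10 genes were called higher and 0 lower by limma, where 0.126% of all genes were called (0.0861% higher and 0.0402% lower), and the log2 differences ran from -0.07 (Dnajb1) to 0.30 (Hspb1). None of the 10 sham differences between genotypes had an unadjusted p under 0.05, the lowest being 0.082 for Hspb1.

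As a description of both sets together, the mean log2 level of the 4 cytosolic genes minus that of the 6 mitochondrial genes was -1.95 ± 0.16 in B-IRI PolgD257A, -2.46 ± 0.24 in B-IRI Polg+/+, -3.03 ± 0.09 in sham PolgD257A and -3.06 ± 0.11 in sham Polg+/+ kidneys (SD, n = 6 each). The B-IRI groups met at their edges, with -2.22 as the lowest B-IRI PolgD257A library and -2.22 as the highest B-IRI Polg+/+ library, and both lay above every sham library, the highest of which was -2.87. The mitochondrial mean alone was 12.71 ± 0.12 in B-IRI PolgD257A, 12.84 ± 0.04 in B-IRI Polg+/+, 12.78 ± 0.08 in sham PolgD257A and 12.73 ± 0.07 in sham Polg+/+ kidneys (SD, n = 6 each). Hspb1 carried most of the shift in this difference. Without Hspb1 it was -1.94 ± 0.10 in B-IRI PolgD257A, -2.17 ± 0.17 in B-IRI Polg+/+, -2.44 ± 0.13 in sham PolgD257A and -2.39 ± 0.07 in sham Polg+/+ kidneys (SD, n = 6 each). The Polg+/+ groups then overlapped. The PolgD257A groups did not, with -2.10 as the lowest B-IRI library and -2.25 as the highest sham library.

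Per length, counted as normalized counts per kb of exon, mitochondrial genes led among the 10 genes. The cytosolic relatives Hsp90ab1 and Hspa8, outside the 10, stood higher. Hsp90ab1 averaged 8802 and Hspa8 6637 in sham Polg+/+ kidneys, and 11200 and 9184 in B-IRI PolgD257A kidneys. In B-IRI PolgD257A kidneys the order of mean levels was Hspd1 (5445), Hspa9 (5088), Hspe1 (3817), Hsp90aa1 (3498), Trap1 (2047), Hspb1 (1686), Clpp (1378), Lonp1 (1352), Dnajb1 (369) and Hspa1a (112). Ranges of neighbours overlapped there except between Hsp90aa1 and Trap1, between Lonp1 and Dnajb1 and between Dnajb1 and Hspa1a. In sham Polg+/+ kidneys the order was Hspd1 (5809), Hspa9 (4319.5), Hspe1 (4224), Trap1 (2682), Hsp90aa1 (2418), Clpp (1339), Lonp1 (1141), Dnajb1 (311), Hspb1 (199) and Hspa1a (78.8), and ranges of neighbours overlapped only for Hspa9 with Hspe1 and for Trap1 with Hsp90aa1. Hspb1 and Hsp90aa1 thus stood higher in the order after B-IRI in PolgD257A kidneys than in sham Polg+/+ kidneys. These groups differ in both surgery and genotype. Hsp90aa1 was at rank 4 and Hspb1 at rank 8 in B-IRI Polg+/+ kidneys, and at ranks 5 and 9 in sham PolgD257A kidneys.

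**Figure D4:**
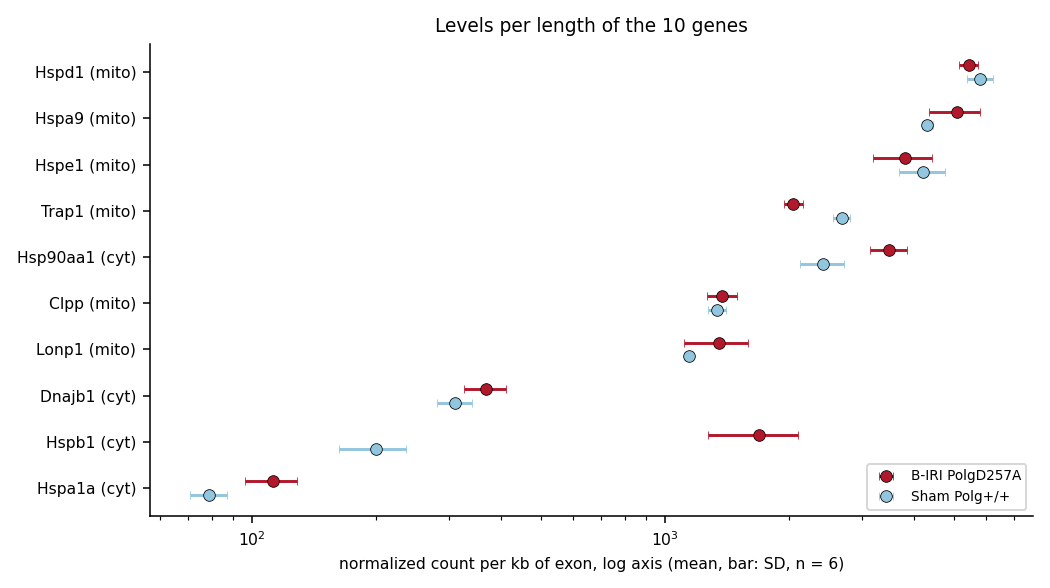
Levels per length of the 10 genes (rows) in B-IRI PolgD257A and sham Polg+/+ kidneys, as the mean normalized count per kb of exon on a log axis with bars of 1 SD (n = 6 each). Hspb1 stands at 1686 in B-IRI PolgD257A and 199 in sham Polg+/+ kidneys, and Trap1 at 2047 in B-IRI PolgD257A and 2682 in sham Polg+/+ kidneys.

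More of the other heat shock genes of the cytosol were called higher than lower after B-IRI. Of 34 cytosolic chaperones and co-chaperones, 22 were higher and 5 lower after B-IRI in PolgD257A kidneys, with a median change of 0.23, and 21 were higher and 2 lower in Polg+/+ kidneys, with a median change of 0.17. The 34 also count Hsf1, Hsf2 and Hsbp1, which are regulators and not chaperones. Of all genes, 30.2% were called higher and 30.3% lower in PolgD257A, and 21.4% higher and 19.8% lower in Polg+/+ kidneys. Bag2, an HSP70 co-chaperone that restrains the ubiquitin ligase CHIP, rose by 1.60 ± 0.08 (adjusted p = 3.7e-15) in PolgD257A and 1.14 ± 0.08 (adjusted p = 1.9e-11) in Polg+/+ kidneys. Stip1, which links HSP70 to HSP90, rose by 0.57 ± 0.06 in PolgD257A and 0.61 ± 0.06 in Polg+/+ kidneys. The constitutive HSP70 gene Hspa8 rose by 0.41 ± 0.08 in PolgD257A and 0.38 ± 0.08 in Polg+/+ kidneys, and Hsph1, a nucleotide exchange factor of HSP70, by 0.28 ± 0.09 in PolgD257A and 0.41 ± 0.09 in Polg+/+ kidneys. The messenger RNA of the factor itself, Hsf1, rose by 0.25 ± 0.05 (adjusted p = 0.00016) in PolgD257A and 0.18 ± 0.05 (adjusted p = 0.0067) in Polg+/+ kidneys. Dnajb6, an HSP40 known for holding back aggregates, fell by 0.52 ± 0.04 in PolgD257A and 0.30 ± 0.04 in Polg+/+ kidneys, and Dnaja4 fell by 0.50 ± 0.08 in PolgD257A kidneys. Dnaja4 overlaps Wdr61 on the opposite strand over 1581 of its 3589 exon bases. Whether counting used the strand is not stated, so the level of Dnaja4 is uncertain.

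Between genotypes after B-IRI, 4 of the 34 were higher and 3 lower in PolgD257A kidneys, where 14.3% of all genes were higher and 15.2% lower, so these counts are not above the background. Bag2 was higher by 0.57 ± 0.08 (adjusted p = 5.4e-06) and Bag3, an HSP70 co-chaperone of autophagy that also binds small heat shock proteins, by 0.26 ± 0.06 (adjusted p = 0.0034). Dnaja4 was lower by -0.31 ± 0.08 (adjusted p = 0.0041). The authors' deposited table lists 3 genes of these lists besides Hspb1, with shrunken log2 changes of 0.546 for Bag2, 0.516 for Cryab and 0.780 for Hspb8.

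Small heat shock proteins other than Hspb1 were called in the same direction where they were called. Of 7 genes, 5 passed the filter and Hspb3 and Hspb9 did not. Of the 5, 3 were higher and 0 lower in each of 3 comparisons, B-IRI against sham in PolgD257A, the same in Polg+/+ and PolgD257A against Polg+/+ after B-IRI, but genes lacking expression could not enter this count. The shares of all genes called higher in these comparisons were 30.2%, 21.4% and 14.3%, and 5 genes are few to set against them. Cryab, the alpha B crystallin, rose by 1.50 ± 0.14 in PolgD257A and 1.07 ± 0.14 in Polg+/+ kidneys, and Hspb6 by 1.30 ± 0.11 in PolgD257A and 0.99 ± 0.11 in Polg+/+ kidneys. Hspb8, the partner of BAG3, rose by 1.43 ± 0.15 in PolgD257A and 0.52 ± 0.15 in Polg+/+ kidneys, with an interaction of 0.91 ± 0.21 (adjusted p = 0.0039).

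The 8 subunits of CCT, the cytosolic chaperonin that folds actin and tubulin, were all higher after B-IRI in both genotypes, 8 of 8 in each, with median changes of 0.45 in PolgD257A and 0.32 in Polg+/+ kidneys. The share of all genes called higher was 30.2% in PolgD257A and 21.4% in Polg+/+ kidneys. In each genotype 8 of 8 had groups that did not overlap, where 36.2% of all genes in PolgD257A and 20.2% in Polg+/+ kidneys had such groups. Cct3 rose by 0.81 ± 0.05 (adjusted p = 1.1e-12) in PolgD257A and 0.60 ± 0.05 (adjusted p = 2.1e-09) in Polg+/+ kidneys, and Cct5 by 0.71 ± 0.05 in PolgD257A and 0.53 ± 0.05 in Polg+/+ kidneys. After B-IRI, 7 of 8 were higher in PolgD257A than in Polg+/+ kidneys, by 0.24 ± 0.05 for Cct3, and 6 of 8 under TMM scaling. In that comparison 14.3% of all genes were called higher. Of the mitochondrial chaperonin pair, Hspe1 was called lower in PolgD257A kidneys and Hspd1 changed direction with the normalization, as given above.

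Mitochondrial partners were mixed. Of 27 chaperones, import motor parts and proteases of mitochondria, 4 were higher and 14 lower in PolgD257A kidneys after B-IRI, with a median change of -0.12, and 6 were higher and 7 lower in Polg+/+ kidneys, with a median change of 0.02, against the same shares of all genes as for the cytosolic list (30.2% higher and 30.3% lower in PolgD257A, 21.4% higher and 19.8% lower in Polg+/+). Under quantile normalization 6 were higher and 11 lower in PolgD257A kidneys. The 27 also count the factor gene Atf5, which was among those called higher in both genotypes. Dnajc19, a part of the import motor, fell by 0.74 ± 0.08 (adjusted p = 6.1e-09) in PolgD257A kidneys. The presequence protease subunit Pmpcb fell by 0.74 ± 0.05 in PolgD257A and 0.45 ± 0.05 in Polg+/+ kidneys, and Mipep, which trims imported proteins further, by 0.64 ± 0.07 in PolgD257A and 0.32 ± 0.07 in Polg+/+ kidneys. Grpel2, a nucleotide exchange factor of mortalin, fell by 0.63 ± 0.06 in PolgD257A and 0.50 ± 0.06 in Polg+/+ kidneys. For its sister Grpel1 the changes were 0.09 ± 0.06 (adjusted p = 0.19) in PolgD257A and 0.23 ± 0.06 (adjusted p = 0.0024) in Polg+/+ kidneys.

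Against this majority, Atf5 rose by 1.97 ± 0.19 (adjusted p = 1.2e-09) in PolgD257A and 2.12 ± 0.19 (adjusted p = 2.2e-09) in Polg+/+ kidneys, with an interaction of -0.15 ± 0.27 (adjusted p = 0.76). Its level was 1576, 2269 and 3795 in B-IRI PolgD257A kidneys, 896, 1936 and 2412 in B-IRI Polg+/+ kidneys, 535, 595 and 659 in sham PolgD257A kidneys and 331, 426 and 471 in sham Polg+/+ kidneys. The sham groups did not overlap, where 0.631% of all genes had sham groups that did not, but their difference of 0.55 ± 0.19 missed the threshold (adjusted p = 0.40). Htra2, a protease of the space between the mitochondrial membranes, rose by 0.45 ± 0.06 in PolgD257A kidneys, and after B-IRI it was higher in PolgD257A than in Polg+/+ kidneys by 0.27 ± 0.06 (adjusted p = 0.0019). Of its 2946 exon bases, 753 overlap Aup1 and 535 overlap Loxl3 on the opposite strand. Whether counting used the strand is not stated, so the level of Htra2 is uncertain. Between genotypes after B-IRI, 2 of the 27 were higher and 8 lower (14.3% and 15.2% of all genes), Dnajc19 by -0.44 ± 0.08 and Pmpcb by -0.30 ± 0.05 among them.

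**Figure D5:**
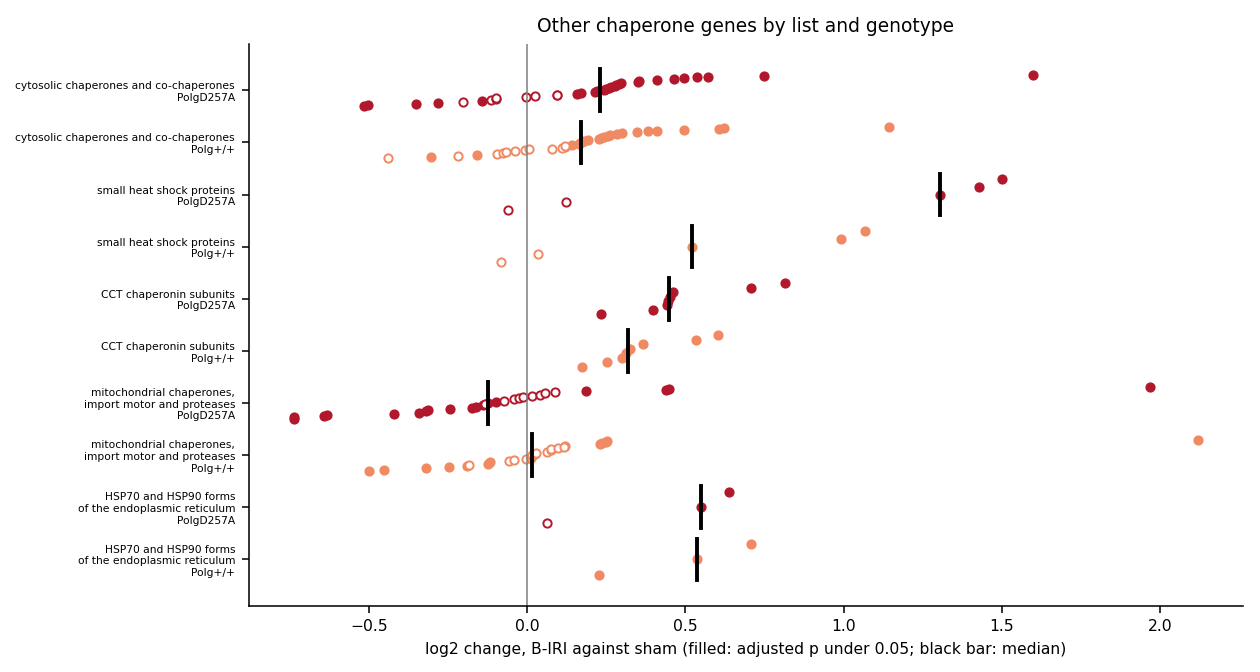
Log2 change after B-IRI against sham of the other chaperone genes, by list and genotype (rows, PolgD257A above Polg+/+ in each list), with 1 point per gene, filled at an adjusted p under 0.05, and a black bar at the median. CCT subunits lie above 0 in every case (medians 0.45 in PolgD257A and 0.32 in Polg+/+), and the mitochondrial list has medians of -0.12 in PolgD257A and 0.02 in Polg+/+, with Atf5 as the point near 2.

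The HSP70 of the endoplasmic reticulum, Hspa5, rose by 0.64 ± 0.08 in PolgD257A and 0.71 ± 0.08 in Polg+/+ kidneys, and Hyou1, its nucleotide exchange factor, by 0.55 ± 0.06 in PolgD257A and 0.54 ± 0.06 in Polg+/+ kidneys. For Hsp90b1, the HSP90 of that compartment, the changes were 0.06 ± 0.07 (adjusted p = 0.45) in PolgD257A and 0.23 ± 0.07 (adjusted p = 0.011) in Polg+/+ kidneys. Its interaction was not called (-0.16 ± 0.10, adjusted p = 0.28), and under quantile normalization 3 of these 3 genes, Hsp90b1 included, were called higher in PolgD257A kidneys too.

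Genes with the most similar pattern over the 24 libraries were found among 10823 genes by the root-mean-square difference of centred log2 levels. For Hspa1a the nearest was Hspa8 (0.119, where the median gene was at 0.324), followed by Bcam and Mal. For Hspb1 the nearest were Clcf1 (0.248, median gene 1.27), Anxa2 and Sfn, and Anxa2 for example averaged 6297 in B-IRI PolgD257A, 3387 in B-IRI Polg+/+, 1030.5 in sham PolgD257A and 936 in sham Polg+/+ kidneys. The nearest to Hspd1 were Babam1 (0.0652, median gene 0.212), Rpe and Rmdn3. The nearest to Lonp1 were Kat14 (0.0949, median gene 0.237), Napa and Vps35. A gene with no change over the libraries would lie at 0.281 from Hspa1a, 1.26 from Hspb1, 0.109 from Hspd1 and 0.162 from Lonp1. Closeness to Hspd1 and Lonp1 thus partly reflects how little these 2 genes vary.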

How the data were processed

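Total RNA of 24 mouse kidneys, 4 groups of 6 by surgery and Polg genotype as the labels give them, entered library preparation at 2 µg each, with the NEBNext Ultra II kit, as the labels' protocols state. FastQC, STAR, SAMtools, featureCounts and DESeq2 with GRCm38.p6 were used, per the submitters' processing notes, with no version or setting stated. The deposited values are a signal, counts per gene that the authors normalized with a size factor for each library. Undoing this division (factors of 0.740 to 1.31) made 100% of the values whole to within 0.001, and the recovered reads gave the depth of 16689284 to 26341004 reads per library. In the column names, Ctrl, Mut and SurgBIR were taken as Polg+/+, PolgD257A and B-IRI, which is inferred from the names. The authors' deposited table of 1401 genes gives a mean signal, a shrunken log2 fold change with its standard error and an s-value, a measure like a p-value, per the file header. Its coordinates are not used here.

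Limma-trend (limma 3.58.1, R 4.3.3) was fitted to log2(normalized count + 1) with 1 mean per group, for the 17430 genes that reached 10 normalized counts in 6 or more libraries. The pseudocount understates changes of low genes. B-IRI was compared with sham within each genotype, PolgD257A with Polg+/+ within each surgery, and both in an interaction, each with Benjamini-Hochberg adjustment over all genes and a threshold of 0.05. The p-values measure the spread between these libraries, whose animals the labels do not name. The alternatives comprised a pseudocount of 0.5 or 5, dropping the filter or raising it to 50, TMM scaling, quantile normalization, edgeR 4.0.16 and DESeq2 1.42.0 on the recovered reads, a fit to only the 12 libraries of a comparison, a block by replicate number and leaving out each library in turn. The 10 genes, the lists and the tests were chosen with earlier results of these data known. Named are the 10 genes, up to 5 genes of each list with the largest changes past the threshold and up to 3 past it against the majority, and 10 relatives and partners such as Hspa8, Clpx and Atf5. Havcr1 was added after its values were seen. Gene locations, exon lengths and overlaps are from GENCODE M21 (GRCm38), which differs from the annotation behind the counts, and promoters are from RefSeq (GRCm38.p6). Figures were drawn with Matplotlib 3.10.9 under Python 3.11.15.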

Additional observations from a re-analysis of the deposited data

Results flagged for a closer look

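A surgery by genotype interaction past an adjusted p of 0.05 by limma marks a response to B-IRI that differed between PolgD257A and Polg+/+ kidneys. Among the 10 genes it was 0.93 for Hspb1, -0.43 for Hspe1 and -0.24 for Trap1 on the log2 scale, a positive value meaning a higher response in PolgD257A. Among the named genes of the other lists it was positive for Hspb8 (0.91), Bag2 (0.45), Dnajb4 (0.39), Htra2 (0.35), Bag3 (0.30) and Cct4 (0.20). It was negative for Dnajc19 (-0.55), Dnaja4 (-0.50), Dnajc15 (-0.36), Phb (-0.33), Mipep (-0.32), Dnaja1 (-0.28) and Fkbp4 (-0.27). Dnajb6 (-0.21) and Pmpcb (-0.28), named for other comparisons, were also negative. The calls of Dnaja1, Dnajc15, Fkbp4, Mipep and Hspe1 were each lost on leaving out at least 1 library. Those of Cct4 and Hspe1 were lost with no filter on low values, and that of Hspe1 also with a block by replicate number. Under quantile normalization the interactions of Hspe1, Trap1, Dnaja1, Fkbp4, Dnajb6 and Pmpcb were not called. All gene-wise interactions draw on the same 24 libraries, in which 5 of 6 proximal tubule markers and Havcr1 also differed between the B-IRI groups, and the part of those differences was not tested.

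In 4 of 80 groups of 6 libraries, covering the 10 genes and 10 relatives and partners, 1 library stood apart from the other 5 by Dixon's criterion, which chance alone meets in about 1 of 20 groups. Sham PolgD257A replicate 3 was high for Hsp90aa1, with 11978 normalized counts against 7859.5 to 9249 in the other 5 libraries, and for its sister Hsp90ab1, with 30728 against 24116 to 26370.3. B-IRI PolgD257A replicate 3 was high for Clpp, with 1964 against 1586 to 1672. B-IRI Polg+/+ replicate 1 was low for Atf5, with 896 against 1867 to 2412, and it also had the lowest Havcr1 of its group.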

How the results depend on the processing

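Over 10 alternatives and 24 fits that each left out 1 library, 8263 of 8450 values of members and named genes kept their side of the threshold. Of the others, 154 lost the call, 32 gained one and 1 called value turned round. That value was Hspd1 for B-IRI against sham in PolgD257A kidneys, at 0.23 under quantile normalization, and the cause was not tested. Values called in neither fit counted as kept whatever their direction, and some changed sign. Hspd1 between genotypes after B-IRI, for example, was at -0.13 and reached 0.03 in 1 of the other fits. For PolgD257A against Polg+/+ in sham kidneys, 22 genes were called by limma on all libraries, 59 by DESeq2 on recovered reads and 37 with only the 12 libraries compared. Of the 10 genes, 3 were called in the interaction, but 1 under quantile normalization. Leaving out each library, the members called ranged from 7 to 9 (B-IRI against sham in PolgD257A), 5 to 6 (the same in Polg+/+), 3 to 3 (PolgD257A against Polg+/+ after B-IRI), 0 to 0 (the same in sham) and 2 to 3 (interaction). All genes called ranged from 10119 to 10588, 6335 to 7319, 4125 to 5220, 15 to 30 and 2102 to 3034 in these contrasts.

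With the replicate number as a block, 7, 5, 3, 0 and 2 members and 10328, 6835, 4786, 20 and 2326 genes were called in the same contrasts. The numbers do not pair the kidneys. Deviations of same-numbered libraries had correlations of -0.548 to 0.304, and 1 of 24 correlated best with its own number. No scaling moved the median change of all genes by over 0.1. The scalings centre most genes by design, so this median cannot show how far single genes depend on them. Under quantile normalization the PolgD257A change after B-IRI went from -0.15 to 0.23 for Hspd1 and from 0.17 to 0.60 for Hspa9. The lowest value of any member in any library was 151 normalized counts, for Hspb1 in sham Polg+/+ replicate 1, above the filter of 10. That library had the fewest reads (16689284) and a size factor of 0.740, so this value stands for fewer than 151 reads.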
